A study of Mus musculus with 32 samples.

Results

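The genes that carry a Toll-like receptor signal from the cell surface to the first cytoplasmic complex were measured in both cell fractions of mouse lung organoid cultures. They were chosen by name from the table of counts, as 2 receptors (Tlr2 and Tlr4), the co-receptor Cd14, 2 adaptors (Myd88 and Ticam1), 2 kinases (Irak1 and Irak4) and the ubiquitin ligase Traf6. All 8 were among the 11818 genes of the table and all 8 were tested in every comparison. Every gene of the table has at least 1 count in each of the 32 libraries, so the table itself fixed that all 8 were found in both fractions. The levels of the 8 were not all equal between the fractions. Cd14 was 8.7-fold lower in the fibroblast fraction than in the epithelial fraction, whereas Tlr4 was 2.06-fold and Ticam1 2.16-fold higher there. With OGN, Cd14 rose in both fractions (1.69-fold in epithelial cells and 3.38-fold in fibroblasts) and Tlr2 rose in fibroblasts (3.13-fold). No adaptor, kinase or ligase among the 8 passed edgeR's test with OGN over the 16 libraries of either fraction. In fibroblasts Myd88 passed in some other fits, as given below.

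Toll-like receptors are membrane proteins that recognize conserved molecules of microbes and some molecules released by damaged tissue. TLR4 responds to bacterial lipopolysaccharide, which LBP delivers to CD14 and CD14 to the complex of TLR4 and MD-2 (encoded by Ly96), while TLR2 pairs with TLR1 or TLR6 and responds to lipoproteins. MyD88 joins the receptors to the kinases IRAK4 and IRAK1, which activate TRAF6 and then NF-kB, whereas TRIF (encoded by Ticam1) serves TLR3 and internalized TLR4 and leads to type I interferon genes. In the lung these receptors are best known from alveolar macrophages, and epithelial cells and fibroblasts carry them as well.

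Epcam+ cells (CD31-/CD45-/CD326+) of naive C57BL/6J mice aged 8 to 14 weeks were grown in Matrigel with equal numbers of CCL206 cells, a mouse lung fibroblast line (1 line for all cultures) whose proliferation had been stopped with mitomycin C. The co-cultures of each of 4 mice received vehicle, recombinant human OGN (osteoglycin, a small leucine-rich proteoglycan, at 10 µg/mL), or EVs (1000000000 particles per mL) or SFs (30 µg/mL), the extracellular vesicles and soluble factors of MRC5 human lung fibroblasts. After 72 h the cells were sorted again with CD326 microbeads into an Epcam+ and a CCL206 fraction. This gave 32 libraries in 8 groups of 4, with depths between 1805914 and 17675454 counts and a median of 5901652. The study asked how these factors act on alveolar progenitors and on the fibroblasts that support them, and the 8 genes bear on which fraction could sense a Toll-like receptor ligand and on what OGN did to the pathway's own genes.

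On GRCm38.p6 (RefSeq annotation) Tlr2 lies at chr3:83836272-83841824, Tlr4 at chr4:66827551-66846581, Myd88 at chr9:119335934-119340018, Ticam1 at chr17:56269462-56276767, Irak1 at chrX:74013914-74023921, Irak4 at chr15:94543613-94568317 and Traf6 at chr2:101678420-101701668. The span of Irak1 holds the microRNA genes Mir5132 and Mir718, and Pus7l lies within 1000 bases of Irak4. Since the counting program is not given in the sources used here, reads at those places may have been assigned to either gene. RefSeq promoter windows were at hand for 6 of the 8 genes and not for Tlr4 and Cd14. The 250 bases before each transcript start were searched on both strands for the NF-kB consensus, for the AP-1 motif TGANTCA and for the GC box GGGCGG. Tlr2 was the gene of the 6 whose window held the NF-kB consensus, and 3.9% of all 32851 windows held it. Its matches overlap on both strands at bases -173 to -163 from the start, and they are shown in capitals because Tlr2 was the receptor that changed with OGN. The window of Tlr2 starts from a transcript whose first base lies 216 bases inside the annotated gene, so the match lies within the annotated gene. The window of Myd88, the adaptor of both receptors, is shown beside it as one without such a match.
Tlr2 (chr3:83841761-83841790, minus strand): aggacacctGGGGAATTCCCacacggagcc
Myd88 (chr9:119340019-119340268, minus strand): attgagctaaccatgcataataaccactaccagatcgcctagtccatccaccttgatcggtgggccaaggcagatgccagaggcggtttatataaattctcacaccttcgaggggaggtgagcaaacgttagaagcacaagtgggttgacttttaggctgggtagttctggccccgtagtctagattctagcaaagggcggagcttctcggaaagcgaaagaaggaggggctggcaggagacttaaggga
No window of the 6 held the AP-1 motif (6.75% of all windows held it), and the GC box was found in all 6 (32.7% of all windows). These matches describe the letters of the windows and do not show that a factor binds there.

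The sort separated the cell types incompletely, which bears on every level given here. With vehicle, the Epcam transcript in the CCL206 fraction was at 3.97% ± 1.14 (SD, n = 4) of its level in the Epcam+ fraction of the same culture. The summed level of 10 genes listed here as alveolar type II (AT2) markers was at 27.7% ± 16.4 (11.7% to 50.7%, with Sftpc at 397% in mouse 1), and that of 9 fibroblast markers at 488% ± 50.9. Lrrk2 of the first list (110%) and Fbln1 of the second (13.7%) went against the rest. In CPM (counts scaled to an equal, TMM-normalized library size), the AT2 sum was 12789 (9552 to 15999) in Epcam+ cells and 3235 (1876 to 4841) in fibroblasts. Conversely, the fibroblast sum was 12034 (11569 to 12907) in fibroblasts and 2497 (2239 to 3111) in Epcam+ cells. Of 12 leukocyte markers 3 were in the table (Cd68, Lyz2 and Cd74), and Ptprc, Csf1r, Adgre1 and Marco were not. Since every gene of the table has at least 1 count in each library, an absent gene may still be expressed in some libraries. In such bulk fractions a lower level may mean fewer cells of a type or less RNA per cell, and these cannot be told apart.

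Divided by transcript length, the order of the 8 genes differed between the fractions. In vehicle-treated Epcam+ cells Cd14 stood first with 158 ± 10.1 CPM per kilobase (SD, n = 4), followed by Irak1 with 36.1 ± 0.524, Myd88 with 13.99 ± 1.42 and Tlr4 with 6.90 ± 1.49. Irak4 (6.40 ± 0.571), Traf6 (4.99 ± 0.339) and Ticam1 (4.48 ± 0.793) came next, and Tlr2 was last with 1.54 ± 0.698. In vehicle-treated fibroblasts Irak1 stood first with 49.7 ± 2.20, before Cd14 with 18.3 ± 2.27 and Tlr4 with 14.4 ± 2.67. There Myd88 (10.6 ± 1.36) and Ticam1 (9.57 ± 1.08) lay within 1 SD of each other, above Irak4 (6.91 ± 0.741) and Traf6 (3.81 ± 0.269), and Tlr2 was again last with 0.833 ± 0.205. Tlr2 was thus the gene with the least reads, between 4 and 107 per library, and its values carry the largest counting error of the 8.

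**Figure D1:**
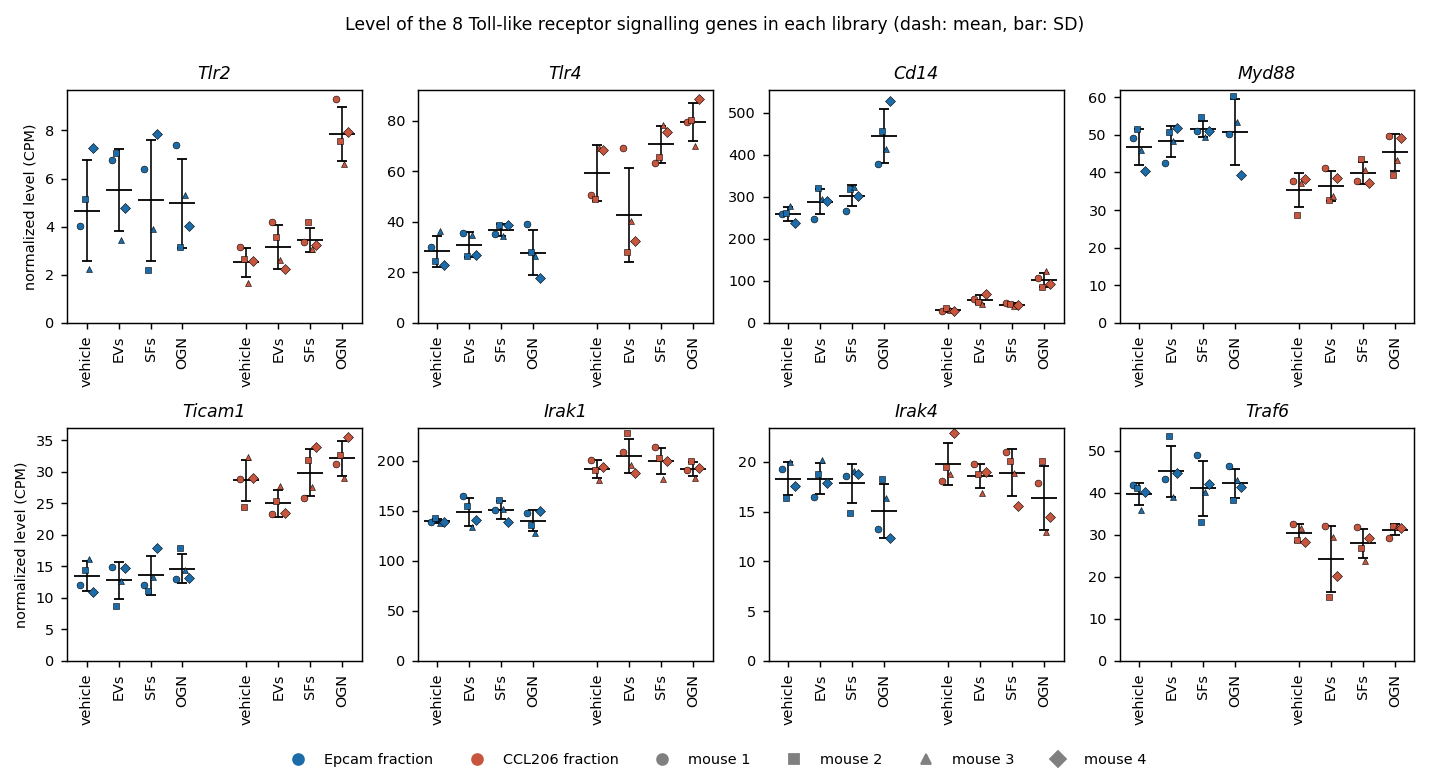
Level of each of the 8 genes in CPM (linear axis from 0) in the 4 libraries of each group, with Epcam+ cells in blue and CCL206 fibroblasts in red, a symbol for each mouse, a dash for the mean and a bar for the SD. Cd14 lies between 239 and 529 CPM in the Epcam+ fraction and between 27.5 and 123 in the CCL206 fraction, and the OGN-treated fibroblasts stand above the other fibroblast groups for Cd14 and Tlr2.

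Between the vehicle-treated fractions, 6 of the 8 genes differed by edgeR's quasi-likelihood test with adjusted p under 0.05, against 71.4% of all 11749 genes tested, so the count is near the background of these unlike cell types. Cd14 was measured at 260, 261, 279 and 239 CPM in the Epcam+ cells of mice 1 to 4, and at 27.5, 35.4, 29.8 and 27.5 CPM in their fibroblasts. The ranges lie far apart, and the difference was -3.12 on the log2 scale (SE 0.0842, edgeR adjusted p = 9.07e-10). Tlr4, the lipopolysaccharide receptor, went the other way. Its levels were 29.8, 24.4, 36.4 and 22.9 CPM in Epcam+ cells and 50.4, 49.0, 69.1 and 68.3 CPM in fibroblasts, without overlap (log2 difference 1.04, SE 0.133, edgeR adjusted p = 3.3e-05). Between these fractions 66% of all genes did not overlap, and neither did 6 of the 8, so such a separation is near the background. Tlr2 was lower in the fibroblasts of each of the 4 mice (2.51 ± 0.62 against 4.66 ± 2.11 CPM), but the groups overlapped and the difference of -0.80 did not pass the test (SE 0.355, edgeR adjusted p = 0.0642). In a fit over all 32 libraries it passed (-0.83, edgeR adjusted p = 0.0224). The co-receptor and the receptor of lipopolysaccharide were therefore highest in different fractions.

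Of the adaptors, Ticam1 was higher in fibroblasts (28.6 ± 3.23 against 13.4 ± 2.37 CPM, SD, n = 4 each; log2 difference 1.11, SE 0.159, edgeR adjusted p = 7.85e-05) and Myd88 was lower (35.4 ± 4.55 against 46.7 ± 4.75 CPM; -0.39, SE 0.129, edgeR adjusted p = 0.0173). Without mouse 2 the Myd88 difference became -0.28 and no longer passed (edgeR adjusted p = 0.066). Irak1, a kinase downstream of MyD88, was higher in fibroblasts (192 ± 8.5 against 140 ± 2.03 CPM; 0.46, SE 0.0693, edgeR adjusted p = 0.000119). Traf6, the ligase that IRAK1 activates, was lower (30.3 ± 2.14 against 39.7 ± 2.7 CPM; -0.38, SE 0.114, edgeR adjusted p = 0.011). Irak4, the kinase that acts first, differed by 0.10 with a 95% interval from -0.24 to 0.44. Apart from Cd14, the fitted differences between the fractions ranged from 1.07-fold (Irak4) to 2.16-fold (Ticam1).

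Because the CCL206 fraction held epithelial RNA, the share of each RNA was compared with that of epithelial markers in the same cultures. Cd14 in vehicle-treated fibroblasts was at 11.6% ± 1.39 of its Epcam+ level (10.5% to 13.6%, n = 4). Epcam lay lower, at 3.97% ± 1.14. Of the 10 genes listed as AT2 markers Hopx (9.49% ± 2.23) was below Cd14 and Sftpb (11.9% ± 4.51) was next above it. Whether the Hopx RNA came from AT2 cells was not tested. The other 8 lay higher, from Sftpd (13.2% ± 5.94), Sftpa1 (15.1% ± 7.03) and Ctsh (18.9% ± 6.75) through Slc34a2 (26.5%), Lamp3 (35.6%) and Napsa (36.05%) to Lrrk2 (110%) and Sftpc (121% ± 184). Tlr4 (214% ± 57.5) and Ticam1 (218% ± 42.9) lay below the shares of 8 of the 9 fibroblast markers, such as Dcn (521% ± 84.4) and Fn1 (530% ± 24.2). How much of the Cd14 RNA in the fibroblast fraction came from remaining epithelial cells was not tested.

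**Figure D2:**
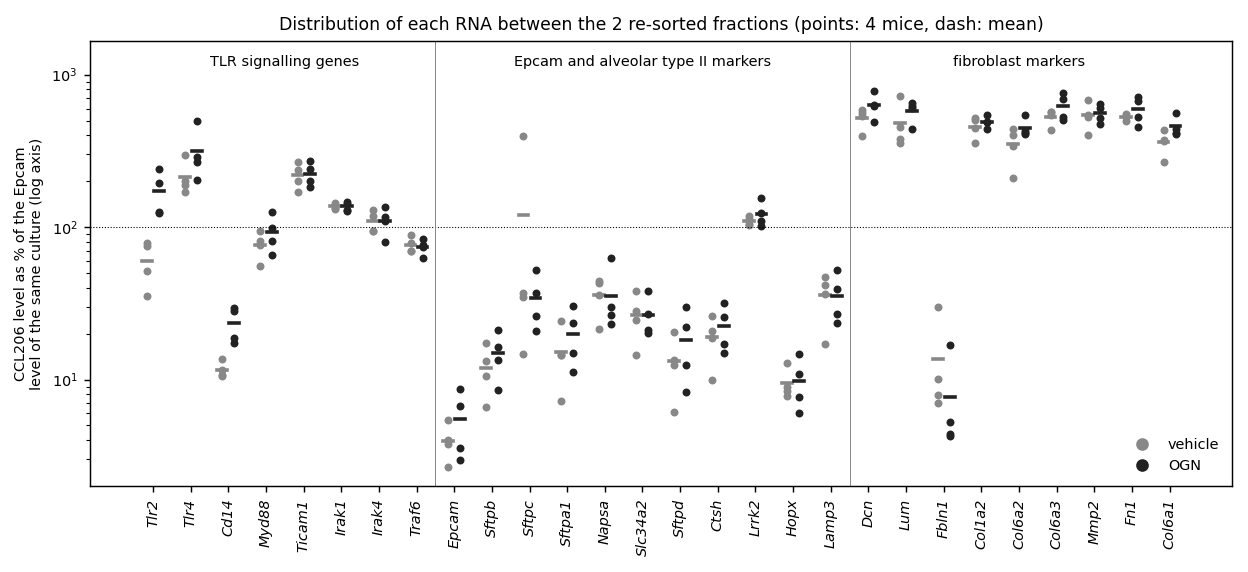
Level in the CCL206 fraction as a percentage of the level in the Epcam+ fraction of the same culture (log axis; dotted line at 100%) for the 8 genes, for Epcam and 10 AT2 markers, and for 9 fibroblast markers, with vehicle in grey and OGN in black. Points are the 4 mice and dashes their means. With vehicle Cd14 lies at 11.6%, above Epcam and Hopx and below the other 9 genes listed as AT2 markers, and with OGN it lies at 23.4%, while Tlr2 moves from 60.2% to 172%.

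In Epcam+ cells treated with OGN, 1 of the 8 genes passed the test, against 2.7% of all 11716 genes. This gene was Cd14 (chr18:36725064-36726815 on GRCm38.p6), at 380, 457, 414 and 529 CPM in mice 1 to 4 against 260, 261, 279 and 239 CPM with vehicle. Every OGN-treated library was above every vehicle-treated one, a separation shown by 6.06% of all genes. The log2 fold change was 0.76 (SE 0.0875, 95% interval 0.58 to 0.94, edgeR adjusted p = 7.36e-06), a 1.69-fold rise, and Cd14 was higher in 4 of 4 mice. In contrast, the receptors did not pass. Tlr2 was at 4.97 ± 1.85 CPM with OGN and 4.66 ± 2.11 with vehicle (0.25, 95% interval -0.53 to 1.02), and the interval reaches about 2-fold. The differences within mice 1 to 4 went opposite ways, at 0.88, -0.71, 1.26 and -0.85 on the log2 scale. Tlr4 was at 27.8 ± 8.77 and 28.4 ± 6.12 CPM (-0.04, interval -0.38 to 0.30). The intervals were narrower for Irak1 (-0.16 to 0.17), Myd88 (-0.11 to 0.34) and Traf6 (-0.15 to 0.35) than for Ticam1 (-0.31 to 0.57) and Irak4 (-0.62 to 0.03). The median change of the 8 genes was 0.11 on the log2 scale, and that of all genes was -0.0031.

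In fibroblasts treated with OGN, 2 of the 8 genes passed, Tlr2 and Cd14, against 4.56% of all 11689 genes. Cd14 was at 106, 85.5, 123 and 92.0 CPM in mice 1 to 4 with OGN and at 27.5, 35.4, 29.8 and 27.5 CPM with vehicle. The groups lay far apart, with a log2 fold change of 1.76 (SE 0.155, 95% interval 1.43 to 2.09, edgeR adjusted p = 3.94e-06) or 3.38-fold. Tlr2 was at 9.29, 7.56, 6.59 and 7.92 CPM with OGN, from 41, 96, 107 and 63 reads, and at 3.17, 2.64, 1.68 and 2.57 CPM with vehicle, from 30, 19, 18 and 26 reads. The 4 differences within mice were alike, between 1.52 and 1.98 on the log2 scale. The fitted log2 fold change was 1.65 (SE 0.232, 95% interval 1.15 to 2.14, edgeR adjusted p = 0.000346), or 3.13-fold. With OGN the mean level of Tlr2 in fibroblasts, 7.84 ± 1.12 CPM, was above its level in every Epcam+ group, where the means ran from 4.66 to 5.51 CPM.

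Tlr4 and Myd88 also separated OGN-treated from vehicle-treated fibroblasts without passing the test over all genes. Tlr4 was at 79.3, 80.1, 70.0 and 88.5 CPM with OGN and at 50.4, 49.0, 69.1 and 68.3 CPM with vehicle. In mouse 3 the levels were almost equal, and the log2 fold change was 0.43 (SE 0.195, edgeR adjusted p = 0.298). Myd88 was at 49.6, 39.5, 43.2 and 49.1 CPM with OGN and at 37.6, 28.6, 37.1 and 38.2 CPM with vehicle (0.35, SE 0.115, edgeR adjusted p = 0.113). Hence 4 of the 8 genes did not overlap between these groups, against 16.4% of all genes. Both values depended on which libraries shared the fit. Without the EV-treated libraries, a fit in which 15.1% of all genes passed, the edgeR adjusted p was 0.00393 for Tlr4 and 0.0265 for Myd88, at log2 fold changes of 0.43 and 0.35. DESeq2 also called Myd88 (0.36, DESeq2 adjusted p = 0.0427) on the same 16 libraries.

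The remaining 4 genes in OGN-treated fibroblasts lay near their vehicle levels. Irak1 was at 191 ± 6.93 CPM against 192 ± 8.5 (-0.01, 95% interval -0.17 to 0.16), the narrowest interval of the 8. Ticam1 was at 32.1 ± 2.76 against 28.6 ± 3.23 CPM (0.15, interval -0.11 to 0.42) and Traf6 at 31.2 ± 1.31 against 30.3 ± 2.14 (0.05, interval -0.28 to 0.39). Irak4 was at 16.4 ± 3.23 against 19.8 ± 2.12 CPM (-0.30, interval -0.62 to 0.02), the same fitted value as in Epcam+ cells, and it was lower in 3 of 4 mice in each fraction. The median change of the 8 genes was 0.25 on the log2 scale, beside -0.011 for all genes.

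**Figure D3:**
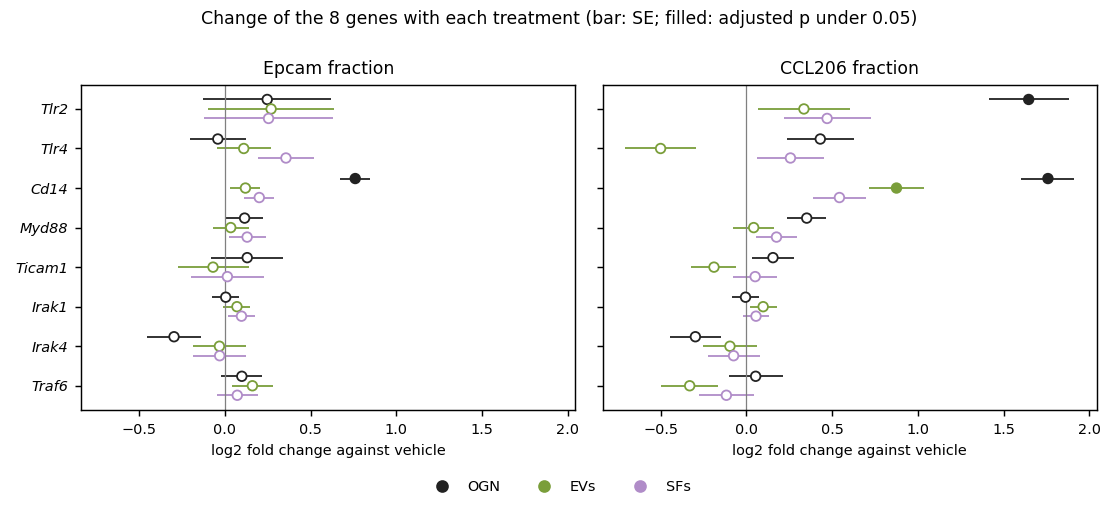
Log2 fold change of the 8 genes against vehicle with OGN, EVs and SFs in Epcam+ cells (left) and CCL206 fibroblasts (right), with bars for the SE and filled points for adjusted p under 0.05. The filled points are Cd14 with OGN in both fractions (0.76 and 1.76), Cd14 with EVs in fibroblasts (0.88) and Tlr2 with OGN in fibroblasts (1.65).

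Whether OGN acted more strongly on a gene in fibroblasts than in Epcam+ cells was tested as an interaction over all 32 libraries, in which 0.551% of 11805 genes passed. Cd14 was the gene of the 8 that passed, with a rise larger in fibroblasts by 0.99 on the log2 scale (SE 0.175, edgeR adjusted p = 0.00302). This call was lost without mouse 1 (0.88, edgeR adjusted p = 0.112) and without mouse 3 (0.82, edgeR adjusted p = 0.11). For Tlr2 the rise was larger in fibroblasts by 1.39 (SE 0.441), but with edgeR adjusted p = 0.245 it is not shown to differ between the fractions. In absolute terms Cd14 gained more in Epcam+ cells, from 260 ± 16.6 to 445 ± 64.5 CPM, than in fibroblasts, from 30.04 ± 3.73 to 102 ± 16.6 CPM. Over the same comparison the share of the Epcam+ level found in the CCL206 fraction went from 11.6% ± 1.39 to 23.4% ± 6.28 for Cd14. The summed AT2 markers stood at 27.7% ± 16.4 with vehicle and 24.2% ± 9.39 with OGN. The vehicle value leans on mouse 1 (50.7%), and without this mouse, an alternative chosen after seeing the data, the sums were at 20.1% ± 7.30 and 23.2% ± 11.2 (n = 3). Epcam went from 3.97% ± 1.14 to 5.50% ± 2.71, Sftpb from 11.9% to 14.9%, Sftpa1 from 15.1% to 19.999% and Sftpd from 13.2% to 18.3%, while Sftpc went from 121% to 34.2%. In CPM, the AT2 sum of the fibroblast fraction was 3116 (2140 to 4272) with OGN and 3235 (1876 to 4841) with vehicle. Among the AT2 markers Sftpa1 (0.83) and Sftpd (0.88) rose with OGN in that fraction. The leukocyte sum was 199 (129 to 275) CPM with OGN and 125 (73.2 to 186) with vehicle in fibroblasts, and 471 (399 to 538) against 339 (289 to 394) in Epcam+ cells. Of its 3 genes Lyz2 and Cd74 are also expressed by AT2 cells. Lyz2 rose in both fractions (1.03 and 0.69), whereas Cd74 (-0.06 and -0.04) and Cd68 (0.25 and 0.63) did not pass. The part of other cell types in the rise of Cd14, and in that of Tlr2 in the fibroblast fraction, was not tested beyond these values.

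EVs and SFs were compared with the same vehicle libraries as OGN, so the 3 comparisons are not independent of each other. In Epcam+ cells none of the 8 genes passed with EVs (0.888% of all genes did) or with SFs (0.23%), by edgeR and by DESeq2. At an unadjusted p under 0.05 there were 0 genes with EVs and 2 with SFs, Tlr4 (0.36, SE 0.162) and Cd14 (0.20, SE 0.0879). In fibroblasts Cd14 was at 56.6, 49.96, 44.8 and 69.8 CPM with EVs, each above all vehicle-treated libraries. A separation in either direction was shown by 23.5% of all genes. The log2 fold change of Cd14 was 0.88 (SE 0.158, edgeR adjusted p = 0.00339), and it made 1 of 8 genes, where 36% of all genes passed. That background rests on few libraries, since it was 0.162% without mouse 2, 6.07% without mouse 4 and 3.34% with only the 8 compared libraries. It missed the threshold without mouse 2 (1.00, edgeR adjusted p = 0.0507). The EV interaction for Cd14 passed as well (0.73, SE 0.18, edgeR adjusted p = 0.00851, against 23.8% of all genes), but it became 0.37 with edgeR adjusted p = 0.0962 once each library's trend along transcript length had been taken out. It was also lost without mouse 1 (edgeR adjusted p = 0.0544) or mouse 4 (0.0727). Tlr4 in EV-treated fibroblasts varied widely, at 69.3, 28.2, 40.5 and 32.4 CPM. Its fold change of -0.50 (SE 0.206) did not pass (edgeR adjusted p = 0.0684), and without mouse 1 it was -0.85 and passed (edgeR adjusted p = 0.00251). Traf6, which has the longest transcript of the 8, likewise ranged from 15.2 to 32.05 CPM in these 4 libraries. The EV-treated fibroblasts of mice 2 and 4 stood apart. Their fibroblast marker sums were 9281 and 7834 CPM against 11751 and 13005 in mice 1 and 3, and their AT2 sums 3950 and 3761 against 3139 and 2820. Tlr4 (28.2 and 32.4 CPM) and Traf6 (15.2 and 20.1 CPM) were lowest in them. Without the EV-treated libraries of mice 2 and 4 the change was 0.67 for Cd14 (edgeR adjusted p = 0.0178, where 5.48% of all genes passed), -0.16 for Tlr4 and -0.02 for Traf6, the last 2 not passing. The part of these libraries' make-up in the EV results was not tested.

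With SFs no gene of the 8 passed in fibroblasts, where 0.0599% of all genes passed. Cd14 was again above every vehicle-treated library, at 46.8, 45.0, 40.3 and 42.9 CPM (0.54, SE 0.156, unadjusted p = 0.00331, edgeR adjusted p = 0.556), a separation shown by 7.02% of all genes. Fitted without the EV-treated libraries, the same change had edgeR adjusted p = 0.0258, and with the 8 compared libraries alone 0.00303. It was the single gene of the 8 with an unadjusted p under 0.05 by edgeR. DESeq2 called none of the 8. No gene of the 8 passed the SF interaction or had an unadjusted p under 0.05 in it. Of all genes 0% passed it by edgeR (590 had an unadjusted p under 0.05), and DESeq2 called 2, none of them among the 8.

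OGN was also set against the other 2 treatments. In Epcam+ cells Cd14 was higher with OGN than with EVs (0.64, SE 0.0863, edgeR adjusted p = 0.000102, 1 of 8 genes beside 2.22% of all) and than with SFs (0.56, SE 0.0871, edgeR adjusted p = 0.001, 1 of 8 beside 1.91%). In fibroblasts OGN exceeded EVs for Tlr2 (1.31, SE 0.248), Cd14 (0.88, SE 0.154) and Tlr4 (0.93, SE 0.206), with edgeR adjusted p between 0.0013 and 0.00447, but 37.6% of all genes passed there. This background was 5.43% without mouse 2, 14.8% without mouse 4 and 7.95% with only the 8 compared libraries. The Tlr4 call was lost without mouse 2 (0.76, edgeR adjusted p = 0.0825), and without the EV-treated libraries of mice 2 and 4 Tlr4 differed by 0.58 (edgeR adjusted p = 0.0348) and Cd14 by 1.09 (edgeR adjusted p = 6.78e-05). It exceeded SFs for Cd14 (1.22, SE 0.153, edgeR adjusted p = 0.000404) and Tlr2 (1.18, SE 0.236, edgeR adjusted p = 0.0109), where 2.79% of all genes passed. This Tlr2 call was lost when any 1 mouse was left out, with edgeR adjusted p between 0.0816 and 0.0906. Tlr4 did not differ beyond its error between OGN and SFs in fibroblasts (0.17, 95% interval -0.24 to 0.59).

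Over the 8 groups the levels of Cd14 formed 5 steps. OGN-treated Epcam+ cells (445 CPM) were above the Epcam+ cells with SFs (303), EVs (289) and vehicle (260), whose ranges overlapped. OGN-treated fibroblasts (102) followed, and the fibroblasts with EVs (55.3) and SFs (43.7) overlapped above those with vehicle (30.04). For Tlr4 the 4 Epcam+ groups (27.8 to 36.7 CPM) overlapped with each other and with EV-treated fibroblasts (42.6 ± 18.5). They lay below the fibroblasts with vehicle (59.2), SFs (70.6) and OGN (79.5). For Tlr2 the fibroblasts with vehicle, EVs and SFs (2.51 to 3.46 CPM) overlapped with the 4 Epcam+ groups (3.17 CPM at most with vehicle, however, against 3.45 at least in EV-treated Epcam+ cells), and OGN-treated fibroblasts overlapped with the top of those groups. Irak1 was lower in every Epcam+ group (140 to 151 CPM) than in every fibroblast group (191 to 205).

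The genes whose levels followed these 3 most closely were looked up by Pearson's r over the 32 libraries, after each fraction's mean had been removed, among 11804 genes. Cd14 was followed by Slc2a1 (0.928), the glucose transporter GLUT1, by Ccl20 (0.927), a chemokine, and by Sod2 (0.916), the mitochondrial superoxide dismutase. Tlr2 was followed by Cd53 (0.755), Antxr1 (0.735) and Itga5 (0.726). Tlr4 was followed by Hivep2 (0.883), Fam102b (0.867) and Xpo5 (0.867). The libraries share mice, treatments and depth, so these values are a description.

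The other parts of the pathway were present to unequal degrees. The counts of genes that passed with OGN are read beside the 2.7% of all genes that did so in Epcam+ cells and the 4.56% in fibroblasts. Of 11 further receptors the table held Tlr3, the double-stranded RNA receptor, and neither Tlr1 nor Tlr6, the partners of TLR2. The table holds only genes counted in every library, so Tlr1 and Tlr6 may still be expressed in 1 fraction. Tlr3 was at 18.7 ± 4.35 CPM in vehicle-treated Epcam+ cells and 11.1 ± 1.61 in fibroblasts, and its change with OGN was -0.12 and -0.33 (not passing). Among co-receptors and chaperones 7 of 8 were in the table. Ly96, which encodes MD-2, was low, at 3.26 ± 0.516 CPM in Epcam+ cells and 5.19 ± 1.77 in fibroblasts with vehicle, and did not pass with OGN (0.41 and 0.13). Lbp, which encodes the lipopolysaccharide binding protein, rose in Epcam+ cells (0.47, SE 0.116, edgeR adjusted p = 0.0257), and in fibroblasts it was at 257 ± 23.4 CPM with vehicle and 313 ± 23.1 with OGN (0.28, not passing). Cd36, a scavenger receptor that assists TLR2, rose in fibroblasts (0.85, SE 0.148, edgeR adjusted p = 0.00212). The medians of this list were 0.13 in each fraction.

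Among the further adaptors, kinases and inhibitors, few passed the test with OGN. Tirap, the adaptor that bridges TLR2 and TLR4 to MyD88, was the single gene of 3 further adaptors in the table and did not pass (0.30 in Epcam+ cells, 0.01 in fibroblasts). Of 18 kinases, ligases and interferon regulatory factors 1 passed in each fraction. This was Ikbke, an IKK-related kinase, with 0.51 (SE 0.136, edgeR adjusted p = 0.0419) in Epcam+ cells and 0.97 (SE 0.0915, edgeR adjusted p = 6.95e-06) in fibroblasts. A share of 1 in 18 is near the background of 2.7% and 4.56%. Irak2 (0.23 and -0.22), Irf7 (-0.86 and -0.93) and Irf5 (-0.63 and -0.27), the last 2 interferon regulatory factors, did not pass, and the list medians were 0.02 and 0.0029. Of 8 inhibitors Tnfaip3, which encodes the deubiquitinase A20, rose in Epcam+ cells (0.55, SE 0.102, edgeR adjusted p = 0.00222), and Cyld, another deubiquitinase, fell in fibroblasts (-0.51, SE 0.139, edgeR adjusted p = 0.0497). Tollip (0.13 and 0.21) and Sigirr (-0.14 and -0.36) did not pass, with list medians of -0.12 and -0.017.

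The interleukin-1 receptors signal through the same adaptor and kinases as TLR2 and TLR4, and 7 of 9 genes of that family were in the table. Il1rap, the accessory chain that the receptors for interleukin-1 and interleukin-33 share, rose in fibroblasts (1.34, SE 0.18, edgeR adjusted p = 0.000217) and not in Epcam+ cells (0.19, SE 0.208). Il1r1 (-0.14 and 0.20) and Il1rl1 (-0.30 and -0.15) did not pass in either fraction. With vehicle, Il1rl1 was at 38.4 ± 0.688 CPM in fibroblasts and 8.10 ± 2.34 in Epcam+ cells. The interaction of OGN and fraction was 1.15 for Il1rap (SE 0.276, edgeR adjusted p = 0.0515), so its change is not shown to differ between the fractions. No gene of the receptor, co-receptor, adaptor, kinase, inhibitor, interleukin-1 receptor and ligand lists passed that interaction.

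Of 10 genes that encode endogenous ligands of TLR2 and TLR4, 3 rose with OGN in Epcam+ cells and 4 in fibroblasts, with list medians of 0.13 and 0.29, beside 2.7% and 4.56% of all genes called in either direction. Dcn, which encodes decorin, rose by 1.14 (SE 0.123, edgeR adjusted p = 2.85e-06) in Epcam+ cells and by 1.40 (SE 0.0926, edgeR adjusted p = 2.07e-07) in fibroblasts. The surfactant proteins Sftpa1 (0.42 and 0.83) and Sftpd (0.45 and 0.88), which bind CD14 and the receptors, rose in both fractions, and Tnc, which encodes tenascin-C, rose in fibroblasts (0.87, SE 0.157, edgeR adjusted p = 0.00292). Dcn is also one of the fibroblast markers, and Sftpa1 and Sftpd are AT2 markers.

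**Figure D4:**
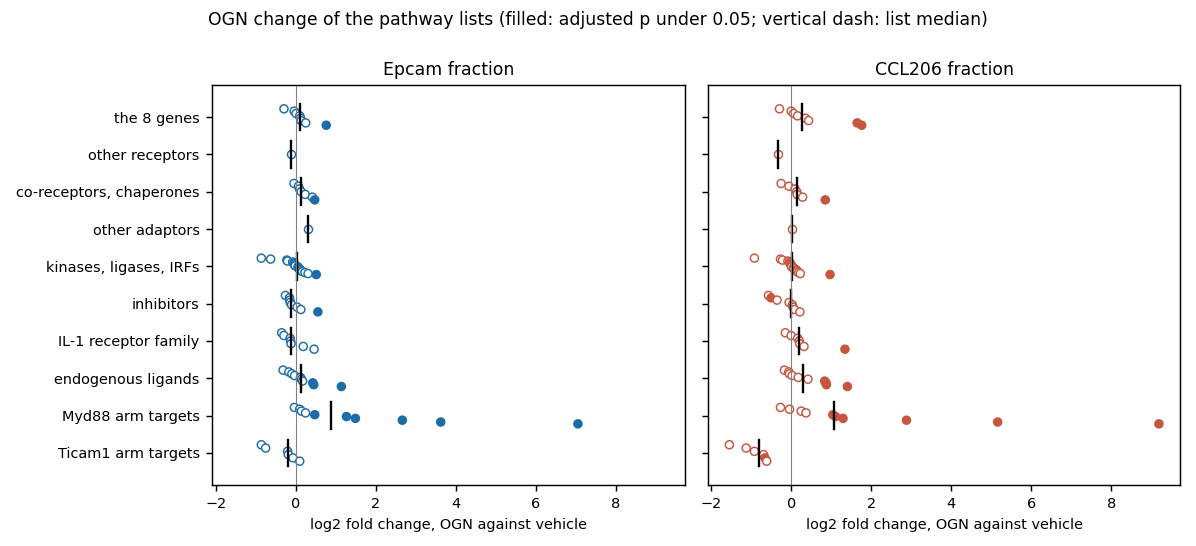
Log2 fold change with OGN of every tested gene of the 8 genes and of 9 further lists of the pathway, in Epcam+ cells (left) and CCL206 fibroblasts (right), with filled points for adjusted p under 0.05 and a vertical dash at each list's median. The medians lie at 0.11 and 0.25 for the 8 genes, at 0.02 and 0.0029 for the kinases, at 0.87 and 1.07 for the Myd88 arm and at -0.20 and -0.81 for the Ticam1 arm, and the lists of further receptors and adaptors each hold a single tested gene (Tlr3 at -0.12 and -0.33, Tirap at 0.30 and 0.01).

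Target genes of both adaptor arms were counted as well, and the difference between the arms was not tested. Of 15 genes listed for the Myd88 and NF-kB arm 10 were in the table, and 6 of them rose in each fraction (beside 2.7% and 4.56% of all genes called), with medians of 0.87 in Epcam+ cells and 1.07 in fibroblasts. They were Saa3 and Lcn2, which encode acute-phase proteins, the neutrophil chemokines Cxcl1 and Cxcl5, Ptgs2, which encodes cyclooxygenase-2, and Zc3h12a, which encodes an RNase that degrades inflammatory transcripts. Cxcl5 rose by 2.67 (SE 0.114) and 2.88 (SE 0.176), Ptgs2 by 0.47 (SE 0.122) and 1.29 (SE 0.156), and Zc3h12a by 1.49 (SE 0.175) and 1.11 (SE 0.126). Of the 10, Lcn2 passed the interaction (1.54 more in fibroblasts, SE 0.223, edgeR adjusted p = 0.000299). By contrast Nfkbia, which encodes the NF-kB inhibitor, was at 0.14 (SE 0.0739) and -0.05 (SE 0.127) and did not pass. Ccl2, Ccl7 and Nfkbiz of this list did not pass in either fraction, and in Epcam+ cells they were at 0.10, 0.24 and -0.04. Of 12 genes listed for the Ticam1 and interferon arm 6 were in the table, none passed in Epcam+ cells, and Ifit2 fell in fibroblasts (-0.66, SE 0.132, edgeR adjusted p = 0.00596). The medians of that arm were -0.20 and -0.81, and all 6 values were below 0 in fibroblasts. Genes of the Myd88 arm rose with the other treatments as well. With EVs 3 of the 10 rose in Epcam+ cells (0.888% of all genes called) and 7 in fibroblasts (36%), with medians of 0.57 and 0.63. With SFs 4 rose in Epcam+ cells (0.23%) and 3 in fibroblasts (0.0599%), with medians of 0.48 and 0.39. The NF-kB genes are also induced by other receptors, and these lists do not identify which receptor was engaged.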

How the data were processed

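Illumina NovaSeq libraries (32, from the cultures of 4 mice) were made from each re-sorted fraction. The authors trimmed reads (Trimmomatic 0.30 per the labels), aligned them and deposited raw counts per gene, without normalization. The aligner, counting program and annotation are not given in the sources used here, and the labels name GRCm39 where the methods name GRCm38. No gene of the table has a count of 0 in any library, so an absent gene may be expressed in 1 fraction. All 32 columns were used, and depths ran from 1805914 to 17675454 counts.

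Counts were filtered with filterByExpr, normalized by TMM and tested with edgeR 4.0.16 (quasi-likelihood F test, R 4.3.3) over the 16 libraries of a fraction, with terms for mouse and treatment. The interaction was fitted over all 32 libraries with a mouse term per fraction, and the difference between fractions over the 8 vehicle-treated libraries. P-values were adjusted by Benjamini-Hochberg over all genes tested, and an adjusted p under 0.05 counted as passing. SEs were derived from the F statistic and the fitted log2 fold change. Levels (CPM) are counts scaled to the TMM-normalized library size, set once over all 32 libraries, and levels per kilobase use transcript lengths matched to 98.3% of the genes. The replicate number in the labels is the mouse, so libraries of 1 mouse were paired. Their deviations correlated with a mean r of 0.0877 to 0.225 over the 6 comparisons with vehicle, against -0.0702 to -0.0298 for other mice. Replicate libraries were compared in 48 pairs, none of which was identical (chi-square over its degrees of freedom at least 2.98).

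The members and gene lists were chosen with earlier results of these data known, so their counts are descriptions. From each list, the text names genes passing with OGN and Ly96, Tirap, Tollip, Irak2, Sigirr, Tlr3, Il1r1 and Il1rl1. The rule was at most 3 per list, fraction and direction, by smallest p. It was not kept for the Myd88 arm, where all 6 genes that rose are named and values are printed for a part of them. Irf5 and Irf7 were named outside this rule. Nfkbia, Ccl2, Ccl7, Nfkbiz, Lyz2, Cd74 and Cd68 were added after their values were seen. Promoter windows are from RefSeq (GRCm38.p6). The alternatives were DESeq2 1.42.0, its size factors (RLE), other filters, other sets of libraries, a trend along transcript length taken out, no replicate block and each mouse left out. The fit was tested on simulated counts.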

Additional observations from a re-analysis of the deposited data

Results flagged for a closer look

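Of 64 groups of 4 libraries (8 genes in 8 groups), 3 held a library far from the other 3, about as many as chance gives at 1 in 20 groups. Myd88 was at 28.6 CPM in the vehicle-treated fibroblasts of mouse 2 and between 37.1 and 38.2 in the others. Irak4 was at 14.9 CPM in the SF-treated Epcam+ cells of mouse 2, against 18.6 to 19.1. Traf6 was at 29.2 CPM in the OGN-treated fibroblasts of mouse 1, against 31.7 to 32.1.

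For 1 gene of the 8 the effect of a treatment differed between the fractions by a test of the difference itself. The rise of Cd14 was larger in fibroblasts than in Epcam+ cells by 0.99 on the log2 scale with OGN and by 0.73 with EVs. Of all genes 0.551% passed this test with OGN and 23.8% with EVs. The OGN call was lost without mouse 1 and without mouse 3. The EV call was lost without mouse 1, without mouse 4 and with the length trend taken out.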

How the results depend on the processing

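No change of sign occurred in a called value. Of the refits of single genes, 1236 stayed on the same side of the threshold, 22 crossed it into a call and 12 lost a call. All 14 counts of called genes were unchanged in the fit with no replicate block, except for OGN against EVs in fibroblasts, where 4 of the 8 genes passed in place of 3 (Ticam1 was added). For OGN against vehicle in fibroblasts the count of 2 became 4 with only the 8 compared libraries and without the EV-treated libraries, and 1 where every library had to hold at least 10 counts, a filter under which Tlr2 was not tested. SFs against vehicle in fibroblasts went from 0 to 1 with the 8 libraries and without the EV-treated ones. OGN against EVs in fibroblasts went from 3 to 5 with DESeq2, with RLE size factors and with the length trend taken out. OGN against SFs in fibroblasts went from 2 to 1 with at least 10 counts. The EV interaction went from 1 to 2 with DESeq2 and to 0 with the length trend taken out. CCL206 against Epcam+ with vehicle went from 6 to 7 with all 32 libraries (Tlr2 was added) and to 5 without mouse 2 (Myd88 was lost). Leaving out each mouse gave 2 to 4 for OGN against EVs in fibroblasts (2 without mouse 2, where Tlr4 was lost, and 4 without mouse 1, where Traf6 was added, or mouse 3, where Ticam1 was added), 0 to 2 for EVs against vehicle in fibroblasts (0 without mouse 2, 2 without mouse 1), 1 for OGN against SFs in fibroblasts whichever mouse was left out, 0 to 1 for the OGN interaction (0 without mouse 1 or mouse 3) and 0 to 1 for the EV interaction (0 without mouse 4). Over all genes, the share passing with OGN ranged from 1.23% (without mouse 1) to 3.97% (DESeq2) in Epcam+ cells and from 2.02% (without mouse 2) to 15.1% (without the EV-treated libraries) in fibroblasts, and from 0.136% to 1.22% for the interaction. In fibroblasts it ranged from 0.162% (without mouse 2) to 40.9% (DESeq2) for EVs against vehicle and from 5.43% (without mouse 2) to 42.4% (DESeq2) for OGN against EVs. The cause of these shifts was not tested. Depth limits Tlr2 most, with as few as 4 reads in a library.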
